A study of Mus musculus with 2 samples.

Results

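Chromatin remodeler and histone modifier genes were followed in single-nucleus RNA sequencing of the right atria of control mice and of mice heterozygous for the Tbx5-p.G125R variant (Tbx5 G125R/+). They comprise every gene of the count tables whose symbol starts with CHD and a digit, KMT, KDM, SMARC, HDAC, ARID, SETD, BRD and a digit, or DPF. This gave 76 genes of 9330 in all, 74 of them detected in each library. Nuclei of 3 right atria were pooled per genotype and sorted on the DNA stain DAPI, so that each genotype is 1 library, with 3475 control and 2933 Tbx5 G125R/+ nuclei. The labels name no treatment of the mice, the variant is a germline change and so is in every cell type, and the labels and methods state no age for the mice of this assay. With 1 library per genotype no test between genotypes could be made, and every interval below covers counting error only, not the spread between mice.

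CHD and SMARC genes encode ATPase motors, and subunits built around them, that slide or evict nucleosomes. ARID1A, ARID1B, ARID2 and the DPF proteins are further subunits of the SWI/SNF remodeling complex, while ARID4B belongs to the SIN3 corepressor. KMT and SETD genes are named for the histone lysine methyltransferase domain they share, KDM genes encode demethylases, HDAC genes deacetylases, and BRD proteins read acetylated lysines. In the heart, SWI/SNF subunits are known as partners of the T-box factor Tbx5, and class IIa deacetylases, among them HDAC4, HDAC5 and HDAC9, as repressors of the muscle factor MEF2.

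Nuclei were divided by titin, the giant sarcomere protein of cardiomyocytes. Titin-rich nuclei had at least 4 TTN counts that made up at least 2% of their counts, which held for 383 control and 404 Tbx5 G125R/+ nuclei. Their total counts were 101848 and 101256, with medians of 251 and 235.5 per nucleus. The other 3092 and 2529 nuclei held 458424 and 321555 counts, with medians of 130 and 118. The rule leaves a soft edge, with 116 nuclei of 4 or 5 TTN counts just inside it, 89 outside it because 4 or more TTN counts made up under 2%, and 122 outside it with 3 TTN counts.

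Markers that the rule did not use divided the nuclei to unequal degrees. The 8 cardiomyocyte markers other than TTN summed to 419.9 and 390.9 per 10000 counts in control and Tbx5 G125R/+ titin-rich nuclei, against 148.3 and 128.8 in the other nuclei. MYH6, the atrial myosin heavy chain, was at 161.8 per 10000 counts in control and 155.3 in Tbx5 G125R/+ titin-rich nuclei, against 29.7 and 25.5 in the other nuclei. MYL4, an atrial myosin light chain, hardly divided them, at 1.07-fold and 1.13-fold in the 2 libraries, nor did TNNI3, cardiac troponin I, at 1.16-fold and 1.35-fold. The 7 fibroblast markers summed to 4.42 and 5.53 per 10000 in titin-rich nuclei, with DCN and LUM at 0 in the control library, against 36.3 and 31.6 in the other nuclei. Endothelial markers summed to 0.687 and 0.691 against 7.35 and 7.65, and the 5 mural markers were all at 0 in titin-rich nuclei. The 4 macrophage markers summed to 0.0982 against 0.393 in control but to 0.494 against 0.529 in Tbx5 G125R/+, where all 5 titin-rich counts were of MRC1. The other nuclei were not free of cardiomyocyte RNA, since 22.4% of them in control and 20.6% in Tbx5 G125R/+ had a MYH6 count, against 91.9% and 91.6% of titin-rich nuclei. They are thus a mixture that also holds titin-poor cardiomyocyte nuclei or free cardiomyocyte RNA, which cannot be told apart. The deposited cluster labels were not used, because they did not separate the markers. Under the 6 labels that carry a cell type name, the titin-rich share of nuclei ran only from 7.63% to 16.5%, and the summed fibroblast markers only from 18.4 to 34.2 per 10000.

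Promoter windows of 5 of the genes named below are shown, 5′ to 3′ on the strand of the gene. Each holds 250 bases before and 50 after a gene start in RefSeq, mouse build GRCm38.p6. Capitals mark 2 motifs searched on both strands, the GC box GGGCGG and the T-box core GGTGTG, which overlap where they share letters. Chd9 and Dpf3 are the remodeler and the SWI/SNF subunit that the comparison places in their families, Smarcd3 is the second cardiac subunit, and Smarca2 and Chd4 are 2 of the genes past 1.5-fold between genotypes in titin-rich nuclei. Windows are at chr8:90828585-90828884 (+), chr12:83487687-83487986 (-), chr5:24601953-24602252 (-), chr19:26604910-26605209 (+) and chr6:125095731-125096030 (+).
Chd9: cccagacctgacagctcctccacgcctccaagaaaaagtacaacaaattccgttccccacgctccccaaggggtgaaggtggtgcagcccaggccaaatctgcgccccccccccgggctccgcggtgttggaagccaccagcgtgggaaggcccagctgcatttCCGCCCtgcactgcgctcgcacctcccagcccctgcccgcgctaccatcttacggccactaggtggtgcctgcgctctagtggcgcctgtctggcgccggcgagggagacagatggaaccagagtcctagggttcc
Dpf3: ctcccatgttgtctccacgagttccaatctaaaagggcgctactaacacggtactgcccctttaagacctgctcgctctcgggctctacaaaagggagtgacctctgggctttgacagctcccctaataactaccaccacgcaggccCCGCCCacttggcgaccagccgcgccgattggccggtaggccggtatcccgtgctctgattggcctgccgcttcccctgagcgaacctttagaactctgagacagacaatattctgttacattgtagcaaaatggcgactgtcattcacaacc
Smarcd3: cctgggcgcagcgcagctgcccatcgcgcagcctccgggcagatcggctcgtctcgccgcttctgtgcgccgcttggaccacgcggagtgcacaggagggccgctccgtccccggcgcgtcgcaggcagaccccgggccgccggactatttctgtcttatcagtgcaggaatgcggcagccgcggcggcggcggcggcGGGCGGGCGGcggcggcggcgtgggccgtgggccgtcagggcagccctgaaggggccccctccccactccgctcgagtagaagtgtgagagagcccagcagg
Smarca2: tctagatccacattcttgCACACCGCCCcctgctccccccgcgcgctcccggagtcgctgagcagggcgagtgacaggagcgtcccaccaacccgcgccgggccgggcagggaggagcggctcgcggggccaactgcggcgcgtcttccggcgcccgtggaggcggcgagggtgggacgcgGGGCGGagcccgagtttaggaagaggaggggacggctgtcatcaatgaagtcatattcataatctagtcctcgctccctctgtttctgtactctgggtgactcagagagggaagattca
Chd4: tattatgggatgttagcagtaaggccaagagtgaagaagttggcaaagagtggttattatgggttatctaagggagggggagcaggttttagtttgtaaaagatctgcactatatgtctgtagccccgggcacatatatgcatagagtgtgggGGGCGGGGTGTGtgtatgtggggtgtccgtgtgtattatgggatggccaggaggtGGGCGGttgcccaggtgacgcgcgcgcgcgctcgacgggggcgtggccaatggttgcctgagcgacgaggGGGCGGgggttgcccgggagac
The T-box core was in 12 of 78 windows of the chromatin genes (15.4%) and in 19.0% of all 32851 windows, and the GC box in 54 (69.2%) against 35.7%. Of the windows shown, the T-box core is in that of Smarca2, where it overlaps a GC box, and in that of Chd4. Chd4 has a second window in the table without the T-box core, Chd9 has one with neither motif, and Kmt2e was not matched. A match is a description of these letters only.

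Among the 39 chromatin genes with at least 20 titin-rich counts, DPF3 had the highest ratio of titin-rich over other nuclei. DPF3 (BAF45C) is a SWI/SNF subunit that binds modified histone tails and is known from heart and skeletal muscle. It lies at chr12:83213751-83487736 of the mouse genome (mm10). Its counts were 24 in the titin-rich nuclei of the control library and 28 in those of the Tbx5 G125R/+ library, against 13 and 11 in the much larger pools of other nuclei. The titin-rich over other ratio was 8.17-fold in control (log2 3.03, 95% counting interval 2.02 to 4.15) and 7.87-fold in Tbx5 G125R/+ (log2 2.98, 1.96 to 4.17), so that both libraries gave nearly the same value. With the stricter titin rule (8 TTN counts and 4%) the mean log2 ratio fell from 3.00 to 1.76. Of 2642 genes with at least 20 counts in each library, only 37 had a higher mean ratio.

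The counts of DPF3 outside titin-rich nuclei were all in nuclei with cardiomyocyte markers. Titin-poor nuclei with at least 2 counts of the 9 cardiomyocyte markers held all 13 control and all 11 Tbx5 G125R/+ counts, at 0.650 and 0.892 per 10000. These nuclei were somewhat deeper (a median of 153 counts in the control library) than the remaining ones (119). The 1971 control and 1646 Tbx5 G125R/+ nuclei outside the titin rule with under 2 counts of these markers held 0 counts of DPF3 among 258347 and 198224 counts. A count of 0 allows up to 3 counts, or 0.116 and 0.151 per 10000 in each library. Against that floor, and with the titin-rich level taken as measured, DPF3 was 20.3-fold higher in titin-rich nuclei of the control library and 18.3-fold in those of the Tbx5 G125R/+ library. With the counting error of both counts, the exact 95% interval allowed ratios down to 15.3-fold and 13.9-fold. DPF3 was found in 24 of 383 control titin-rich nuclei (6.27%, exact 95% interval 4.06 to 9.18) and in 28 of 404 Tbx5 G125R/+ titin-rich nuclei (6.93%, 4.65 to 9.86), never with more than 1 count. After thinning each nucleus to 80 counts the shares were 1.57% and 2.76% in titin-rich and 0.147% and 0.337% in other nuclei. Thinning, here and below, drew counts at random and left out nuclei with under 80 counts. In control these were 2 titin-rich and 363 other nuclei, and in Tbx5 G125R/+ 6 and 453, so that thinned shares describe fewer nuclei.

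Between genotypes DPF3 gave no resolved difference. Its log2 ratio of Tbx5 G125R/+ over control was 0.23 in titin-rich nuclei, with an interval of -0.61 to 1.08 that also holds a 2-fold difference. With the stricter titin rule the ratio was 1.12, outside that interval. DPF2, the more widely expressed relative, had 5 and 4 counts in titin-rich and 19 and 10 in other nuclei, too few to place.

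**Figure D1:**
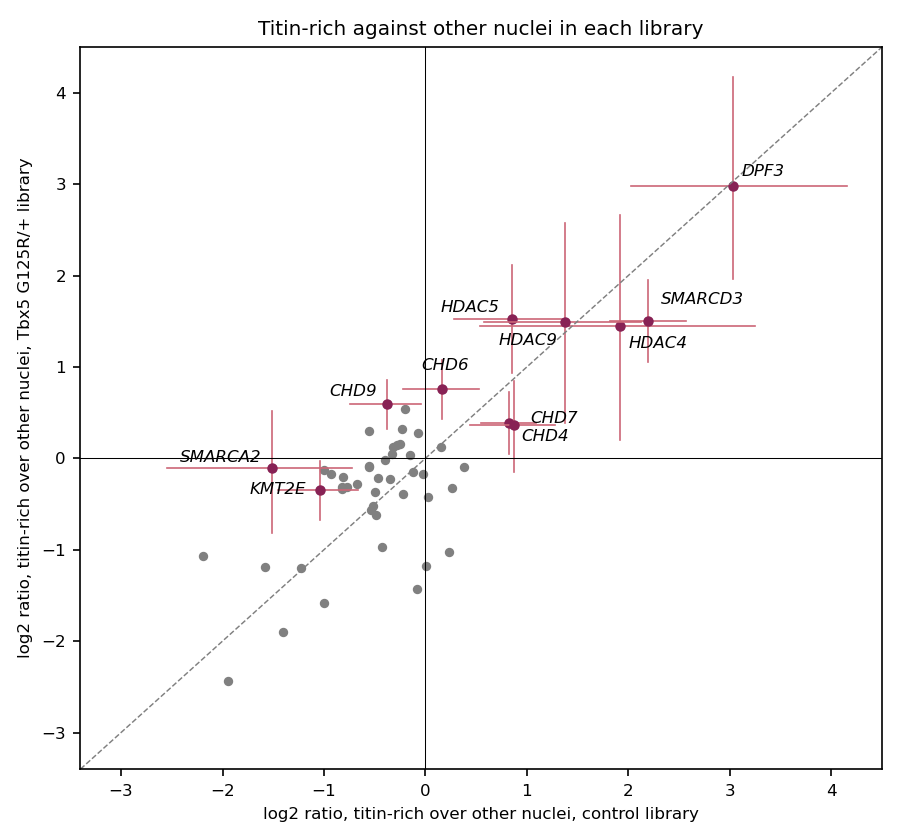
Log2 ratio of titin-rich over other nuclei in the control library (horizontal axis) and the Tbx5 G125R/+ library (vertical axis) for the 53 chromatin genes with at least 20 counts in each library; bars on the named genes are 95% counting intervals and the dashed line marks equal ratios. DPF3 lies near 3 on both axes, and CHD9 lies at -0.38 in control and 0.59 in Tbx5 G125R/+.

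Of the 53 chromatin genes with at least 20 counts in each library, 4 were at least 2-fold higher in titin-rich than in other nuclei in both libraries (7.55%), against 8.74% of all genes tested. They were DPF3, SMARCD3, HDAC4 and HDAC9. At least 2-fold lower in both were 5 (9.43%), against 17.1% of all genes. Both shares were below those of all genes. Of the 53 genes, 29 were lower in both libraries, 9 higher in both and 15 opposite, against 1491, 644 and 507 of 2642 genes in all. The median of the mean log2 ratio was -0.31, against -0.40 over all genes. Scaling by the median of ratios instead of total counts moved every titin-rich over other ratio up by 0.41 in control and 0.38 in Tbx5 G125R/+, so that with it 1 gene and not 5 was 2-fold lower.

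SMARCD3 (BAF60C), the SWI/SNF subunit whose loss disturbs heart formation in the mouse embryo, was next to DPF3 in this order. SMARCD3 had 123 counts in control and 82 in Tbx5 G125R/+ titin-rich nuclei, and 121 and 92 in the other nuclei. The titin-rich over other ratio was 4.58-fold in control (log2 2.19, 1.82 to 2.57) and 2.83-fold in Tbx5 G125R/+ (log2 1.502, 1.05 to 1.95). Unlike DPF3, it stayed at 2.47 and 2.33 per 10000 in the remaining nuclei. These pass neither the titin rule nor the minimum of 2 cardiomyocyte marker counts, and are not in the fibroblast group. That group needs at least 2 fibroblast marker counts that exceed the endothelial, macrophage and mural sums. Between genotypes its log2 ratio was -0.57 in titin-rich nuclei (-0.998 to -0.16), just inside 1.5-fold, and 0.12 in other nuclei (-0.29 to 0.52). The ratio was not the same at all depths, being -0.85 in titin-rich nuclei with at least 200 counts and 0.52 in those with fewer.

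Its paralog SMARCD1 (BAF60A), which takes the same place in the complex, did not share this difference. SMARCD1 had 30 and 13 counts in titin-rich and 114 and 53 in other nuclei, with titin-rich over other ratios of log2 0.26 and -0.32. SMARCD2 had 5 counts in all. Paralogs are alike in sequence, and the labels and methods do not state how reads shared between them were counted.

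Of the 4 class IIa deacetylases, HDAC4, HDAC5 and HDAC9 were higher in titin-rich nuclei, as were DPF3 and SMARCD3. HDAC4 had 10 and 12 counts in titin-rich and 12 and 14 in other nuclei, with log2 ratios of 1.92 in control (0.54 to 3.24) and 1.45 in Tbx5 G125R/+ (0.20 to 2.66). HDAC9 had 24 and 15 counts against 42 and 17, with ratios of 1.38 (0.58 to 2.12) and 1.49 (0.38 to 2.58). HDAC5 had 41 and 49 counts against 103 and 54, with ratios of 0.85 (0.28 to 1.38) and 1.53 (0.94 to 2.11), so that it passed 2-fold only in the Tbx5 G125R/+ library. HDAC7, the remaining class IIa gene, had 0 counts in titin-rich and 6 and 7 in other nuclei, too few to place, since the intervals of its log2 ratios reach up to 1.93 and 1.14. Of the other deacetylases, HDAC8 had 10 counts in titin-rich and 51 in other nuclei, HDAC2 had 13 and 47, and HDAC1, HDAC3 and HDAC11 had under 20 counts in all.

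**Figure D2:**
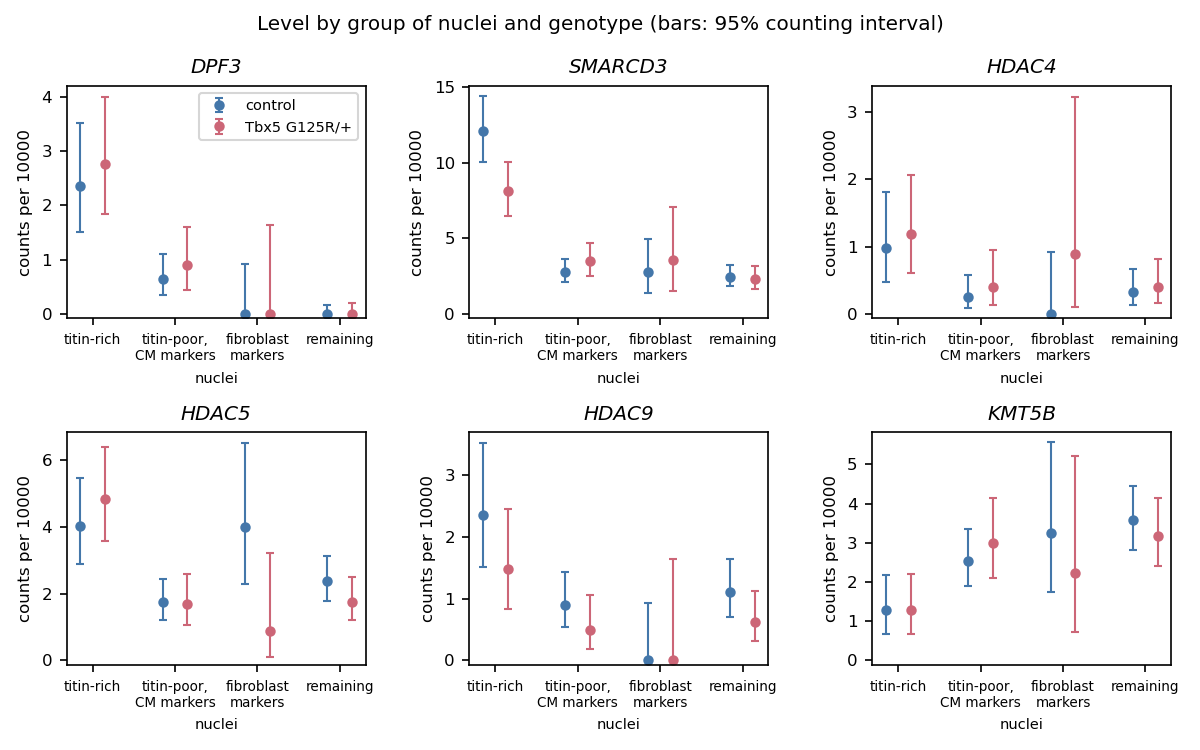
Counts per 10000 (vertical axes) of 6 genes in 4 groups of nuclei, with control in blue, Tbx5 G125R/+ in red and 95% counting intervals as bars; CM stands for cardiomyocyte. DPF3 has 0 counts in the nuclei with fibroblast markers and in the remaining nuclei, SMARCD3 stays between 2.33 and 3.57 per 10000 outside titin-rich nuclei, and KMT5B is lowest in titin-rich nuclei.

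The 5 genes at least 2-fold lower in titin-rich nuclei in both libraries were CHD3, BRD3, ARID4A, KDM5B and KMT5B. CHD3, an ATPase of the NuRD deacetylase complex, had 10 and 5 counts in titin-rich against 181 and 94 in other nuclei (log2 -1.94 and -2.44). CHD4, the alternative ATPase of the same complex, went the other way, with 159 and 105 counts in titin-rich against 405 and 255 in other nuclei (log2 0.82 and 0.39). KMT5B, which dimethylates histone H4, had 13 and 13 counts against 142 and 98 (log2 -1.23 and -1.20). BRD3, ARID4A and KDM5B had 9, 7 and 8 counts in titin-rich nuclei over both libraries.

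Between genotypes, CHD9 had the second highest ratio of 39 chromatin genes in titin-rich nuclei, after SMARCA2 with far fewer counts. CHD9 is a chromodomain helicase of the same subfamily as CHD6, CHD7 and CHD8, at chr8:90828302-91054516 of the mouse genome (mm10). It had 81 counts in control and 168 in Tbx5 G125R/+ titin-rich nuclei, or 7.95 per 10000 (6.32 to 9.88) and 16.6 per 10000 (14.2 to 19.3). The ratio was 2.08-fold (log2 1.06, 0.67 to 1.46). In the other nuclei it had 476 and 354 counts, 10.4 and 11.0 per 10000, with a ratio of 1.06-fold (log2 0.08, -0.12 to 0.29). The difference between the 2 ratios was 0.97 on the log2 scale, with a counting interval of 0.53 to 1.43. In titin-rich nuclei the intervals of the CHD9 level in the 2 libraries did not overlap, and in the other nuclei they did. The titin-rich intervals of KMT2E, CHD6 and, in the other direction, CHD4 did not overlap either. How many of all genes share this was not counted, so that it cannot be called particular to these genes.

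Among all genes few gave a higher ratio in titin-rich nuclei. Of 366 genes with at least 100 counts there, 1 was higher than CHD9, and of 1569 with at least 20 counts, 30 were. KMT2E had 10 and 115 genes above it, and CHD6 had 11 and 120.

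CHD9 counts were spread over many nuclei. A count was found in 73 of 383 control titin-rich nuclei (19.1%, exact 95% interval 15.2 to 23.4) and in 132 of 404 Tbx5 G125R/+ titin-rich nuclei (32.7%, 28.1 to 37.5), with at most 3 and 4 counts in a nucleus. In other nuclei the shares were 13.6% and 12.7%. Shares move with depth, and after thinning to 80 counts they were 6.04% (3.86 to 8.92) and 9.30% (6.63 to 12.6) in titin-rich nuclei and 8.54% and 8.43% in other nuclei. Counting each nucleus once gave a log2 ratio of 0.85. In the deeper titin-rich nuclei, those with at least 200 counts, CHD9 was at 8.06 and 18.1 per 10000, and in the shallower ones at 7.38 and 11.3, where the log2 ratio was 0.58. The part of depth in the difference was not tested beyond these values.

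The excess was not seen in the titin-poor nuclei with cardiomyocyte markers, where CHD9 was at 7.60 and 8.27 per 10000 (log2 0.12, -0.25 to 0.49), nor in the remaining nuclei (12.7 and 12.2 per 10000). In the fibroblast group, as defined above, it was at 11.5 and 17.0 per 10000, from 46 and 38 counts (log2 0.56, -0.10 to 1.21). Control titin-rich nuclei were low in CHD9 relative to the other nuclei of their library (log2 -0.38, -0.74 to -0.04), and Tbx5 G125R/+ titin-rich nuclei were high relative to theirs (log2 0.59, 0.32 to 0.86). With median-of-ratios scaling these values were 0.04 and 0.98, so that CHD9 was near 0 in control, while the genotype ratio in titin-rich nuclei hardly moved (1.05).

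**Figure D3:**
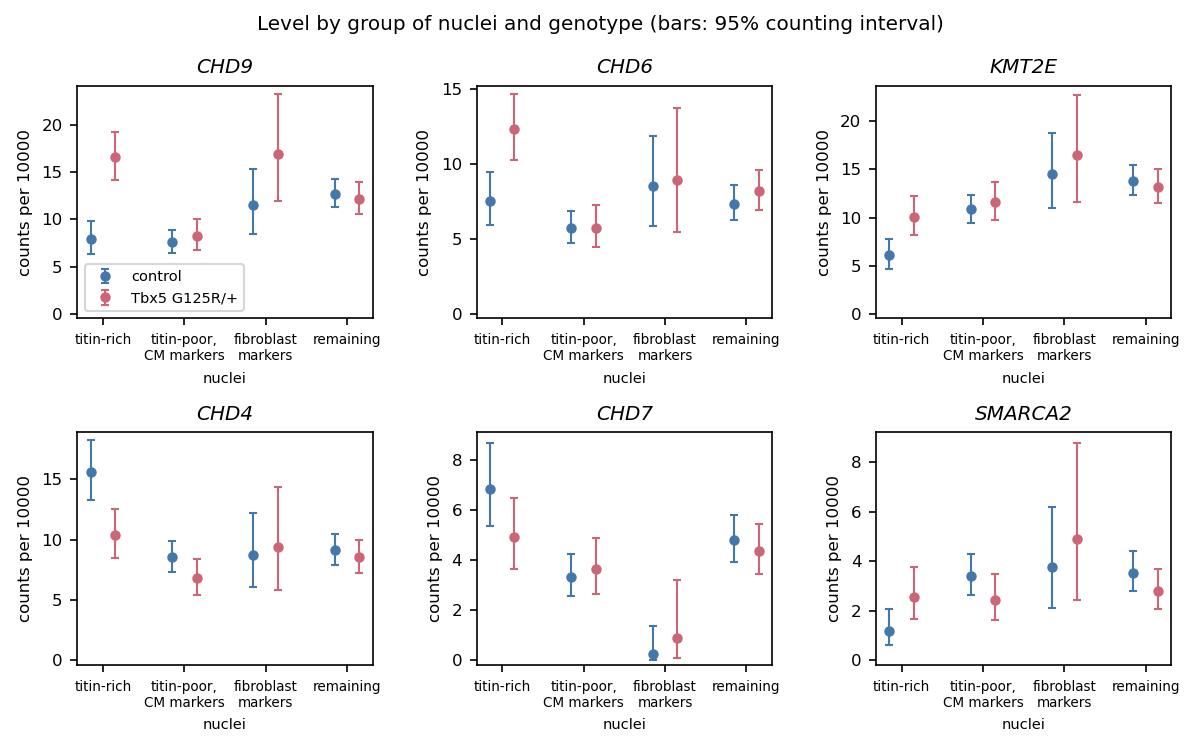
Counts per 10000 (vertical axes) of 6 genes in 4 groups of nuclei, with control in blue, Tbx5 G125R/+ in red and 95% counting intervals as bars; CM stands for cardiomyocyte. For CHD9 the titin-rich nuclei are at 7.95 in control and 16.6 in Tbx5 G125R/+, while the titin-poor nuclei with cardiomyocyte markers are at 7.60 and 8.27.

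The CHD family did not share 1 direction. CHD6 had 202 counts in titin-rich nuclei, 77 of them in control, or 7.56 and 12.3 per 10000 (log2 0.70, 0.29 to 1.14) and 310 and 235 in other nuclei (log2 0.11, -0.14 to 0.36). CHD4 had 159 and 105 counts (log2 -0.59, -0.96 to -0.23), and 405 and 255 in other nuclei (log2 -0.15, -0.39 to 0.07). CHD7, the gene of CHARGE syndrome in people, had 70 and 50 counts (log2 -0.47, -1.03 to 0.07).

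CHD8 had 26 and 23 counts (log2 -0.16, -1.04 to 0.70). CHD1, CHD2 and CHD3 had 10, 14 and 15 titin-rich counts over both libraries, and CHD1L had 1 count in all. Summed over its 9 members the family had 434 and 489 titin-rich counts (log2 0.18, -0.01 to 0.37), and without CHD9 it had 353 and 321 (log2 -0.13, -0.35 to 0.09). Leaving out CHD9 thus turned the sum below 0.

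KMT2E (MLL5), which has a SET domain but binds methylated histone H3 through its PHD finger rather than being known as an active methyltransferase, lies at chr5:23433036-23504235 of the mouse genome (mm10). It had 62 counts in control and 102 in Tbx5 G125R/+ titin-rich nuclei, or 6.09 (4.67 to 7.80) and 10.1 (8.21 to 12.2) per 10000. The ratio was 1.65-fold (log2 0.72, 0.26 to 1.21). In other nuclei 577 and 412 counts gave 12.6 and 12.8 per 10000 (log2 0.03, -0.16 to 0.21), and the difference of the ratios was 0.70 (0.19 to 1.22). In both libraries KMT2E was lower in titin-rich than in other nuclei, by log2 -1.04 in control (-1.45 to -0.67) and -0.34 in Tbx5 G125R/+ (-0.67 to -0.03), though with median-of-ratios scaling at -0.62 and 0.04. It was found in 14.9% and 22.0% of titin-rich nuclei, or 4.46% and 8.04% after thinning. The antisense transcript KMT2E-AS1 had 2 and 5 titin-rich and 15 and 8 other counts, and since the labels and methods state no use of strand its reads cannot be told apart from those of KMT2E.

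None of the other 4 KMT genes with at least 20 titin-rich counts had an interval clear of 0. KMT2A (MLL1), a methyltransferase of active promoters, had 69 and 83 titin-rich counts (log2 0.27, -0.20 to 0.76). KMT2C and KMT2D, which act at enhancers, had 60 and 60 counts (log2 0.01, -0.53 to 0.55) and 21 and 15 counts (log2 -0.46, -1.54 to 0.55). KMT5B was at log2 0.01 (-1.22 to 1.24), and KMT2B and KMT5A had 12 and 10 counts over both libraries. The 8 KMT members, KMT2E-AS1 among them, together had 237 and 290 titin-rich counts (log2 0.30, 0.05 to 0.55). Without KMT2E, but still with KMT2E-AS1, they had 175 and 188 (log2 0.11, -0.19 to 0.42).

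Over all 39 chromatin genes with at least 20 counts in titin-rich nuclei, 9 were past 1.5-fold higher in Tbx5 G125R/+ (23.1%), against 10.6% of the 1569 genes tested, and 5 were past 1.5-fold lower (12.8%), against 12.4%. Higher were SMARCA2, CHD9, SMARCA5, SETDB1, ARID2, KMT2E, CHD6, KDM6B and SMARCA4, and among the lower were KDM5C, SMARCD1, HDAC9 and CHD4. The median log2 ratio was 0.20, against 0.01 over all genes, with 26 genes above 0 and 13 below. The median depended on the setting, at -0.21 after thinning nuclei to 80 counts, 0.01 at a minimum of 1 count and 0.43 in nuclei with under 200 counts. At a minimum of 50 counts 4 were past 1.5-fold higher and 1 lower, and with the looser titin rule (2 TTN counts and 1%) 5 were higher. CHD6, KMT2E and SMARCD1 stayed past 1.5-fold under all 10 alternatives run on single genes. With the looser rule ARID2, SMARCA2, SMARCA4, SMARCA5, KDM6B, CHD4 and HDAC9 were within 1.5-fold, and with the stricter one ARID2, SMARCA2, SETDB1, CHD4 and HDAC9 were. Summed over all 76 genes, titin-rich counts were 1565 and 1680 (log2 0.11, 0.01 to 0.21). CHD9 alone held 81 and 168 of these counts, so that much of the rise in the sum was its own.

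In the other nuclei, 3 of 61 genes were past 1.5-fold higher (4.92%, against 7.09% of 3641 genes) and 3 lower (4.92%, against 9.8%). The higher ones were SMARCA1, HDAC4 and HDAC2, and the lower ones KDM2B, HDAC9 and SMARCD1. The median was -0.02, as over all genes, and the sum over all 76 genes gave log2 -0.01 (-0.06 to 0.04).

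**Figure D4:**
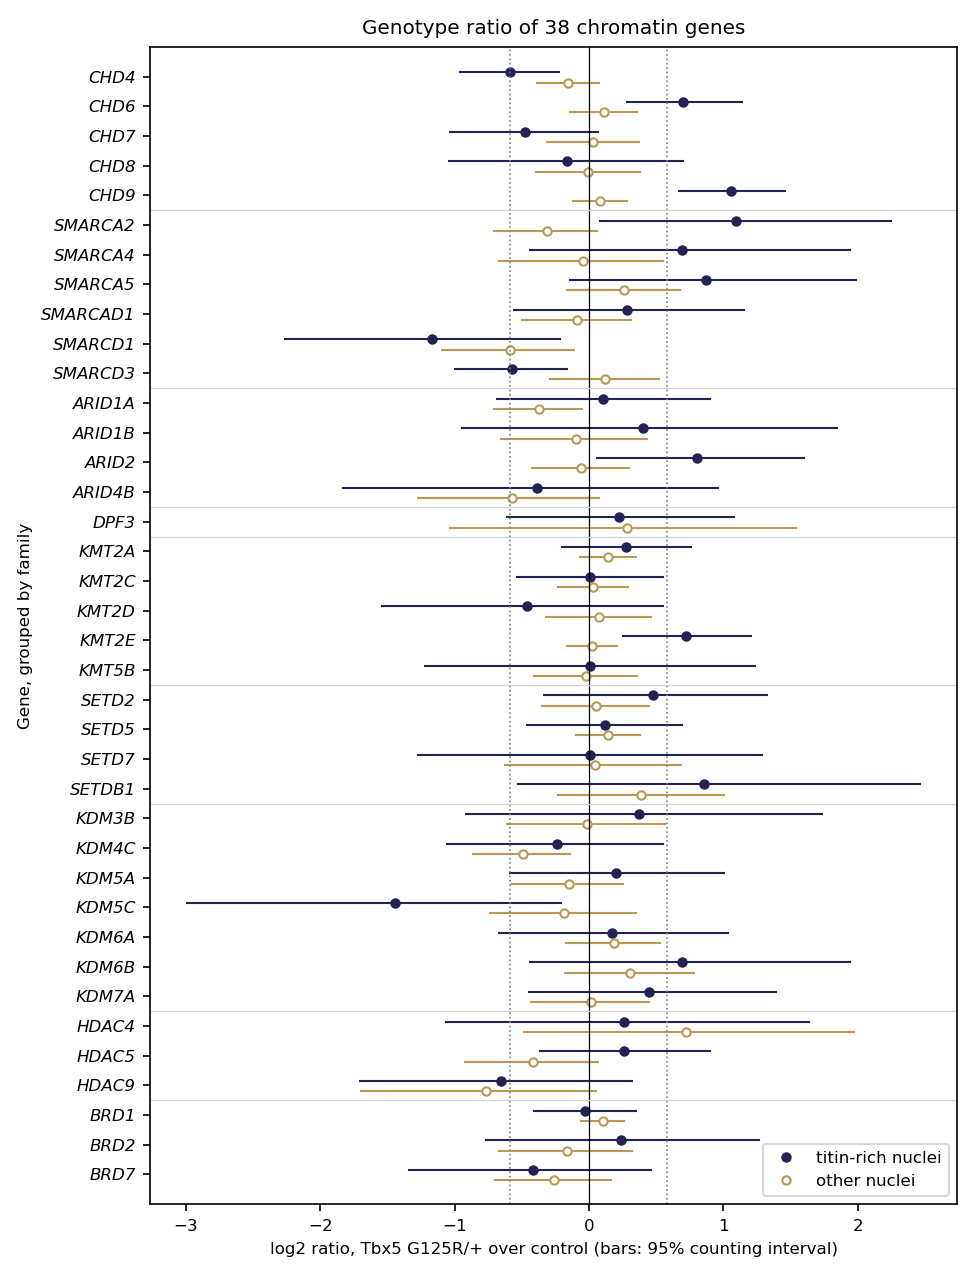
Log2 ratio of Tbx5 G125R/+ over control (horizontal axis) for 38 of the 39 chromatin genes with at least 20 titin-rich counts, in titin-rich nuclei (filled) and other nuclei (open), with 95% counting intervals; dotted lines mark 1.5-fold. CHD9 is at 1.06 in titin-rich and 0.08 in other nuclei, and the widest intervals belong to genes of few counts such as KDM5C and SETDB1.

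Among SWI/SNF subunits both alternative ATPases were past 1.5-fold higher in titin-rich nuclei. SMARCA2 (BRM) had 12 and 26 counts (log2 1.09, 0.09 to 2.25), but 160 and 90 in other nuclei (log2 -0.31, -0.71 to 0.06). SMARCA4 (BRG1) had 11 and 18 counts (log2 0.69, -0.44 to 1.95). The interval of SMARCA4 includes 0 and that of SMARCA2 comes close to it. With the looser titin rule both were within 1.5-fold (log2 0.54 for SMARCA2 and 0.26 for SMARCA4), and with the stricter one SMARCA2 was too (0.40).

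ARID2, a subunit particular to the PBAF form of the complex, had 24 and 42 titin-rich counts (log2 0.80, 0.06 to 1.60) and 162 and 109 in other nuclei (log2 -0.06, -0.42 to 0.30). ARID1A and ARID1B, the alternative subunits of the BAF form, had 28 and 30 counts (log2 0.11, -0.68 to 0.90) and 9 and 12 (log2 0.40, -0.95 to 1.85). SMARCD1 was lower in titin-rich nuclei (log2 -1.17, -2.26 to -0.22) and in other nuclei (log2 -0.59, -1.09 to -0.11). The core subunits SMARCB1, SMARCC1 and SMARCC2 had 2, 2 and 5 titin-rich counts over both libraries, so that the complex as a whole could not be followed at this depth.

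Outside this complex, SMARCA5, the ATPase of ISWI remodelers, had 13 and 24 counts (log2 0.87, -0.14 to 1.99), and SMARCAD1 had 23 and 28 (log2 0.29, -0.56 to 1.15). SMARCA1, the other ISWI ATPase, had no titin-rich count and 11 and 13 in other nuclei. ARID4B, a subunit of the SIN3 corepressor, had 12 and 9 counts (log2 -0.39, -1.83 to 0.96).

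Of the 4 SETD genes with at least 20 titin-rich counts, none had an interval clear of 0. SETDB1, which makes the repressive methylation of histone H3 at silenced repeats, had 7 and 13 counts (log2 0.86, -0.53 to 2.47). SETD2, the trimethylase of transcribed gene bodies, had 23 and 32 (log2 0.48, -0.33 to 1.32). SETD5 had 51 and 55 (log2 0.12, -0.46 to 0.70) and SETD7 had 12 and 12 (log2 0.01, -1.27 to 1.29).

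Demethylases went both ways. KDM5C, an X-linked eraser of promoter methylation, had 20 and 7 titin-rich counts (log2 -1.44, -2.99 to -0.21) and 78 and 48 in other nuclei (log2 -0.18, -0.74 to 0.35). KDM6B (JMJD3), which removes the Polycomb mark, had 11 and 18 (log2 0.69, -0.44 to 1.95), and its X-linked relative KDM6A (UTX) had 24 and 27 (log2 0.18, -0.67 to 1.03). KDM3B, KDM4C, KDM5A and KDM7A lay between log2 -0.24 and 0.45, each with an interval across 0. The labels and methods state no sex for the mice of either pool of this assay, so that a difference in an X-linked gene cannot be told apart from one in the makeup of the pools.

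Among acetyl-lysine readers, BRD2, a BET protein, had 17 and 20 titin-rich counts (log2 0.24, -0.76 to 1.27). BRD7, a PBAF subunit, had 27 and 20 (log2 -0.42, -1.34 to 0.46), and BRD1, a scaffold of acetyltransferase complexes, had 119 and 116 (log2 -0.03, -0.41 to 0.35), with one of the narrowest intervals of the group. Of the deacetylases, HDAC9 was at log2 -0.65 (-1.71 to 0.32) in titin-rich and -0.77 (-1.70 to 0.05) in other nuclei, HDAC4 at 0.26 (-1.07 to 1.64) and HDAC5 at 0.26 (-0.36 to 0.90) in titin-rich nuclei.

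Likeness was measured as the distance over 2 values, the mean titin-rich over other log2 ratio and the genotype log2 ratio in titin-rich nuclei, over 39 genes in 2 libraries. Nearest to CHD9 were ARID2 (0.35), SMARCA4 (0.37) and SETDB1 (0.47). Nearest to KMT2E were KDM6B (0.21), SMARCA5 (0.23) and ARID1B (0.34). DPF3 had no close neighbor, the nearest being HDAC4 (1.32), SMARCD3 (1.41) and HDAC9 (1.80). These distances leave out counting error, which is wide for neighbors of few counts. The genotype log2 interval ran from -0.53 to 2.47 for SETDB1 and from -0.44 to 1.95 for KDM6B. For CHD9 the mean titin-rich over other ratio joins values of opposite sign, log2 -0.38 in control and 0.59 in Tbx5 G125R/+. The order of neighbors is thus a description only.

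Related chromatin genes were described from lists of 79 genes outside the name rule, namely further SWI/SNF subunits, acetyltransferases, Polycomb, DNA methylation, NuRD and other methyltransferase genes. Of these, 73 were detected and 30 had at least 20 titin-rich counts, of which 1 was past 1.5-fold higher and 2 lower, against 10.6% and 12.4% of all genes, with 18 above 0 and 12 below. EZH2, the Polycomb methyltransferase, had 13 and 21 counts (log2 0.68, -0.37 to 1.82), NSD2 had 19 and 7 (log2 -1.37, -2.93 to -0.12) and the acetyltransferase EP300 had 22 and 14 (log2 -0.63, -1.72 to 0.39). NSD1, with 203 and 238 counts, was at log2 0.24 (-0.04 to 0.52). None of 39 such genes with at least 20 counts in each library was 2-fold higher in titin-rich nuclei in both libraries, and 3 were 2-fold lower, against 8.74% and 17.1% of all genes.

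Other settings left CHD9, KMT2E and CHD6 above 0 in titin-rich nuclei throughout. Under 10 alternatives CHD9 ran from log2 0.58 to 1.16, KMT2E from 0.64 to 0.83 and CHD6 from 0.62 to 0.91, while CHD4 ran from -0.88 to -0.32. SMARCA2, with fewer counts, ran from 0.04 to 1.28. Another scaling, 1 added to each sum, or only nuclei with at least 100 counts turned the sign of 0 of 38 genes. All 10 alternatives used the same 2 libraries.

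**Figure D5:**
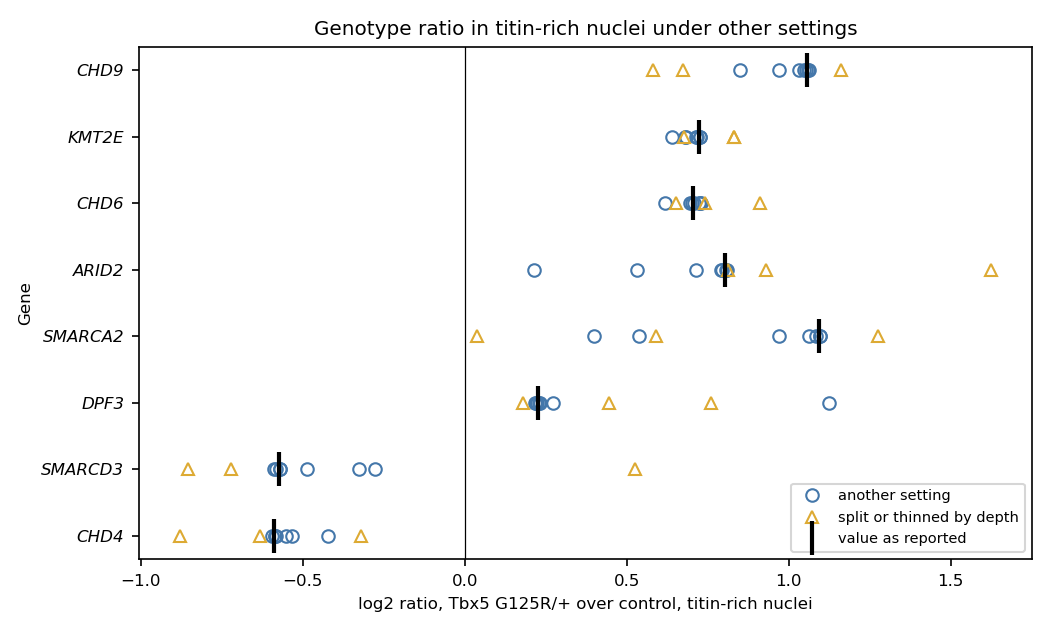
Log2 ratio of Tbx5 G125R/+ over control in titin-rich nuclei (horizontal axis) for 8 genes, as reported (bar), under other settings (circles) and after thinning or splitting nuclei by depth (triangles). CHD9 stays between 0.58 and 1.16, KMT2E and CHD6 stay above 0.6, and SMARCD3 changes side in nuclei with under 200 counts.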

How the data were processed

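Counts per nucleus and gene were used as deposited by the authors, who loaded 7000 nuclei per library on the 10x Genomics platform, kept nuclei with at least 1000 reads in R2 and applied no normalization to these counts. As deposited, 2 nuclei held over 1000 counts, so that these counts are not the reads of that cutoff. The submitters' processing notes name mm10, yet genes carry human Ensembl identifiers, so each value is the number counted for that identifier. For the aligner and the counting tool, nothing is stated in the labels or methods. The deposited table of the authors' p-values and fold changes per cluster was not used. Counts were summed per gene, library and group of nuclei and scaled to total counts (Python 3.11.15, numpy 2.4.6, pandas 2.3.3, scipy 1.17.1). Log2 ratios had 0.5 added to each sum, and intervals were exact conditional 95% intervals of 2 Poisson counts. Numbers of genes past a fold, medians and ranks were taken over genes with at least 20 counts, unless another minimum is stated. No p-value was computed. Library totals were 560272 (control) and 422811 counts, with medians of 138 and 125 per nucleus, which limits precision to genes of about 100 counts or more. The rule for named genes was CHD9, KMT2E and DPF3 with their families, and every member with at least 20 titin-rich counts. One such gene is counted but not reported here. Members and lists were chosen with earlier results of these data known. Doublets were not called, and the libraries shared 0 nucleus identifiers, although the tables list no barcode sequences. Mouse coordinates are of genes with the same symbol (74 of 76, RefSeq). Ratios and intervals were checked on simulated Poisson counts, the model that the intervals assume. That check holds no spread between nuclei or mice and cannot speak to it.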

Additional observations from a re-analysis of the deposited data

Results flagged for a closer look

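One result differed in sign between the libraries beyond both counting intervals, of 39 genes looked at. The titin-rich over other ratio of CHD9 was log2 -0.38 in the control library and 0.59 in the Tbx5 G125R/+ library. The gap between them restates the difference of 0.97 between its genotype ratios given above, from the same counts, and is no separate result. With median-of-ratios scaling the values were 0.04 and 0.98, no longer opposite. With 1 library per genotype the difference was not tested, and the depth of titin-rich nuclei (medians of 251 and 235.5 counts) stands beside it.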

How the results depend on the processing

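Counts of genes past a fold depended on the minimum and on the nuclei. In titin-rich nuclei 9 genes were past 1.5-fold higher, against 5 with the looser titin rule, 4 at a minimum of 50 counts, 18 at 1 count, 3 after thinning to 80 counts and 2 in nuclei with under 200 counts. The 5 lower became 1 with the stricter titin rule (8 TTN counts and 4%), 1 at 50 counts, 16 at 1 count, 3 with each nucleus counted once and 0 in nuclei with under 200 counts. In other nuclei the 3 higher became 1 with the looser rule, 0 at 50 counts and 9 at 1 count, and the 3 lower became 5 at 1 count, 6 without nuclei holding cardiomyocyte markers and 6 after thinning. The 4 genes 2-fold higher in titin-rich nuclei became 1 at 50 counts and 1 after thinning. The 5 lower became 3 with the stricter rule, 1 with median-of-ratios scaling, 3 at 50 counts, 8 at 1 count, 2 with each nucleus counted once and 2 after thinning. A minimum of 50 or 1 changes which genes are tested, and the cause was not tested for the other settings. Of the reported genes past 1.5-fold in titin-rich nuclei, KDM6B and SMARCA4 reversed in nuclei with under 200 counts (-0.086 each). Of the 25 reported genes not past it, 14 of 23 with a value changed sign there, 11 after thinning, and 4 with the looser and 4 with the stricter rule. The settings by thinning of the genotype ratio and by depth were chosen after seeing the data. DPF3 between genotypes was at 1.12 with the stricter titin rule, against 0.23. No paired analysis was possible because each genotype is 1 library, and for the same reason no replicate could be left out. Genes under 20 counts are limited by depth.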
